A study of Danio rerio with 24 samples.

Results

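Immediate early genes are transcribed within minutes of a stimulus, without new protein synthesis, and their transcripts are lost again soon afterwards. Most encode transcription factors, and growth factor signals, neuronal activity, wounding and cell stress all switch them on through kinase cascades that act on factors already bound at their promoters. Jun and Fos proteins pair to form the AP-1 factor, EGR1 and NR4A1 bind DNA through zinc fingers, and NPAS4 is known from mammals as a factor induced by neuronal activity. In whole animals these genes are known for responding to handling and heat as well as to the treatment under study.

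The 10 genes described here are fosab, fosb, fosl1a, jun, junba, junbb, egr1, nr4a1, ier2b and npas4a, chosen by symbol from the 25432 genes of each deposited table. Each symbol matched 1 row in every table, and all 10 passed the filter on low values in every line. The identifiers in the files are ENSDARG00000031683 for fosab, ENSDARG00000055751 for fosb, ENSDARG00000015355 for fosl1a, ENSDARG00000043531 for jun, ENSDARG00000074378 for junba, ENSDARG00000104773 for junbb, ENSDARG00000037421 for egr1, ENSDARG00000000796 for nr4a1, ENSDARG00000086881 for ier2b and ENSDARG00000055752 for npas4a. In RefSeq's annotation of GRCz12tu, fosl1a and npas4a lie on chromosome 14 with 3 protein-coding genes between them.

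RNA came from whole zebrafish embryos at 4 days post fertilization (dpf) in 4 lines, with 3 libraries in each of 8 groups. The 3TG embryos carried the CRISPR-Q components and guide RNA, and the 2TG embryos were siblings with the components and no guide. The guides were directed at smn1 or at tardbp and tardbpl for knockdown, and at lin28a or sox9b for transcriptional activation. Embryos of both genotypes were raised at 28.5 °C with 14 h of light and 10 h of dark and were warmed for 1 h at 2 and again at 3 dpf, which turns on the QFvpr driver through its hsp70l promoter. The heat treatment was therefore shared by 3TG and 2TG embryos, and no unheated group was analysed here. The labels give neither the number of embryos behind a library nor whether replicates came from separate clutches, so p-values measure the spread between these libraries. In bulk RNA from whole embryos, fewer cells of a type and less RNA per cell cannot be told apart.

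Values are TPM, a share of all transcripts and so a level scaled for gene length, so levels can be set beside each other between genes. The depth of each library is unknown, because the tables hold no counts. The 5 targeted genes were compared with the labels. In the 3TG libraries of their own lines smn1 (13.0 to 17.3 TPM, against 24.6 to 27.9 in 2TG), tardbp (48.3 to 80.1, against 108.6 to 145.7) and tardbpl (76.7 to 120.9, against 180.2 to 216.1) were lower, and lin28a (2.69 to 8.41, against 0.310 to 1.23) and sox9b (31.5 to 39.7, against 17.1 to 18.4) were higher, with no overlap between groups. Of all genes tested, 11.2% in the smn1 line and 29.1% in the tardbp line were separated with 3TG lower. With 3TG higher, 2.50% were in the lin28a line and 3.60% in the sox9b line. The lin28a level in those 3TG libraries lay within its range in 2TG libraries of the other lines, 1.70 to 11.2 TPM. Markers of neurons (8 of 8), skeletal muscle (9 of 9 rows), epidermis (8 of 8), endothelium (7 of 7) and leukocytes (7 of 8) were at 1 TPM or more in all 24 libraries. A pair of libraries stood apart. The listed TPM of tardbp 3TG replicate 3 summed to 77.8% of the full TPM total, and those of the other 23 libraries to 98.4% to 99.0%. Its summed markers were the lowest of the 6 tardbp libraries for all 5 lists, with 320 TPM of neuron markers against 614 to 871, 20048 of muscle against 40015 to 49360, 5401 of epidermis against 8980 to 13576, 26.8 of endothelium against 43.5 to 63.4 and 82.7 of leukocytes against 120.4 to 261. The lin28a 3TG replicate 2 library correlated with the other 5 of its line at r = 0.89 to 0.91 over genes, against 0.95 to 0.98 among those 5, with summed neuron markers of 325 TPM, against 780 to 872. Its endothelium and leukocyte sums were the highest of its line, and its muscle and epidermis sums lay within the range of the other 5. The leukocyte sum of 412 TPM included 255 TPM of mmp9, which was at 3.41 to 11.1 TPM in the other 5 libraries of its line.

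No immediate early gene passed the test between 3TG and 2TG embryos in any line. On log2(TPM + 1), limma called 0 of the 10 members in the smn1, tardbp, lin28a and sox9b lines at an adjusted p under 0.05. The members were tested in the whole table, where 0% of 19660 genes were called in the smn1 line, 0.0103% of 19336 in the tardbp line, 0% of 19580 in the lin28a line and 0% of 19619 in the sox9b line. At an unadjusted p under 0.05 there were 2421, 2657, 349 and 239 genes in the 4 lines in that order. Among them were 2 members, nr4a1 and fosl1a, both in the smn1 line. With each library centred on its median gene, ier2b, npas4a and egr1 in the tardbp line were also under 0.05 unadjusted (limma adjusted p = 0.482 for each). By p they ranked 366, 514 and 1728 of 19336 genes in that fit, so many other genes were as low. With a replicate block, junba in the lin28a line was under 0.05 unadjusted too, at rank 675 of 19580 (limma adjusted p = 0.849).

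The 3TG and 2TG libraries were fully separated for few members. Among smn1 libraries 3 members had groups that did not overlap, nr4a1 and egr1 with higher 3TG levels and fosl1a with lower ones, where 19.2% of all genes tested did so, 7.96% with 3TG higher and 11.2% with 3TG lower. In the tardbp line 1 member, jun, was separated, with 3TG lower, where 29.2% of genes were separated, 29.1% in that direction and 0.176% in the other. No member was separated in the lin28a line, where 6.56% of genes were (2.50% with 3TG higher, 4.06% with 3TG lower), or in the sox9b line, where 4.75% were (3.60% with 3TG higher, 1.15% with 3TG lower). The exact permutation test, two-sided, gave its smallest possible p of 0.1 for those 4 cases, so it could not pass 0.05.

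**Figure D1:**
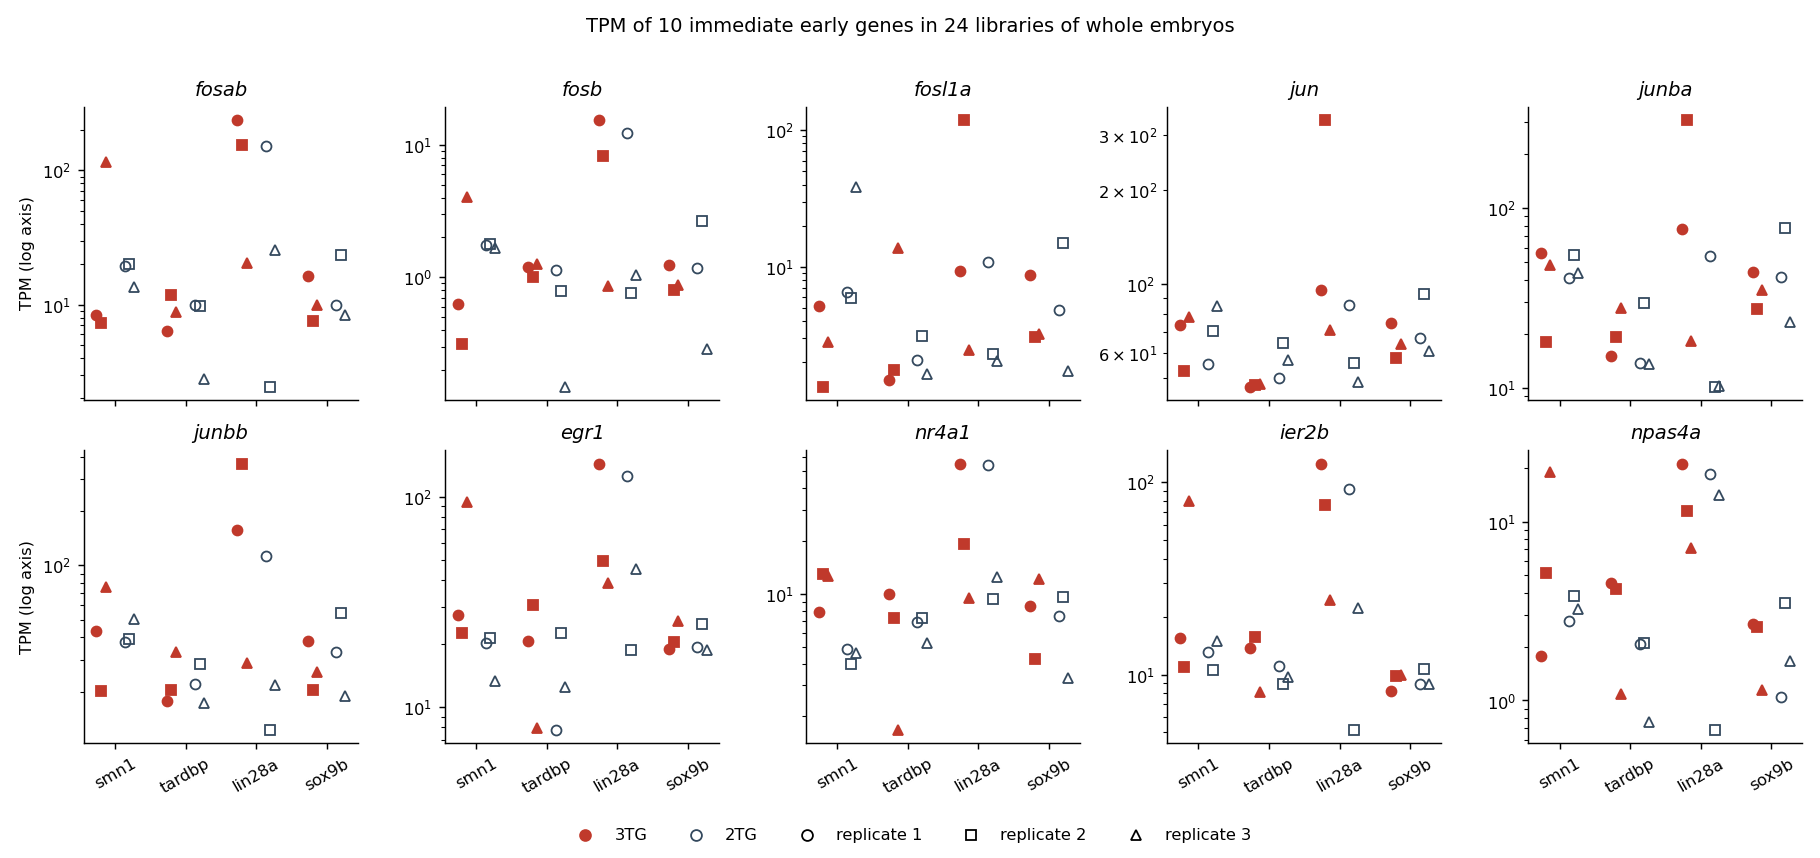
TPM of the 10 members on a log axis, with 1 panel per gene and 1 point per library, and 3TG left of 2TG within each line. Levels of 3TG and 2TG libraries overlap in most panels, and the highest points of all 10 genes are in lin28a 3TG.

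The Jun family members were the most abundant. Their median TPM over the 24 libraries was 64.5 for jun, the founding AP-1 subunit, and 32.4 and 30.9 for junba and junbb, the zebrafish duplicates of the AP-1 subunit JunB. Reads shared between such duplicates may be divided by the quantification, so their separate values are less certain than their sum.

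In lin28a embryos, jun was at 95.7, 336 and 71.2 TPM in the 3TG libraries, against 85.5, 55.7 and 48.4 TPM in the 2TG libraries. The groups overlapped, and replicate 2 of 3TG stood far above the other 5 libraries. The mean was 168 ± 146 TPM in 3TG and 63.2 ± 19.7 TPM in 2TG (SD, n = 3 each), a log2 difference of 1.09 (SE 0.53, limma adjusted p = 0.980). Without replicate 2 of 3TG the difference was 0.42.

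In lin28a embryos, junba was at 76.5, 309 and 18.2 TPM in 3TG and at 54.0, 10.2 and 10.3 TPM in 2TG. The same 3TG replicate was highest, and the groups overlapped. The log2 difference was 2.02 (SE 0.97, limma adjusted p = 0.980), the largest of any member in any line, and 1.02 without that replicate. Its duplicate junbb followed the same library order at the top, with 157, 366 and 28.8 TPM in 3TG and 113, 12.2 and 21.7 TPM in 2TG, and a log2 difference of 1.89 (SE 0.99), or 1.08 without 3TG replicate 2.

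In the tardbp line jun was at 46.9, 47.5 and 47.7 TPM in 3TG libraries, against 50.0, 64.5 and 56.9 TPM in 2TG libraries. All 3 of the 3TG libraries lay below all 3 of the 2TG libraries. This was a log2 difference of −0.26 (SE 0.38, limma adjusted p = 0.707), while the median of all genes in this line was −0.45, or −0.16 without 3TG replicate 3. After each library was centred on its median gene, the jun difference was 0.18, the opposite direction.

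In the smn1 line jun differed by −0.04 on the log2 scale (95% interval −0.59 to 0.51), and in the sox9b line by −0.15 (−0.55 to 0.26). Both intervals hold 0 and values on either side of it. The duplicates junba and junbb had log2 differences of −0.32 and −0.05 in the smn1 line, 0.17 and 0.05 in the tardbp line, and −0.26 and −0.26 in the sox9b line. Under quantile normalization jun and junbb were slightly higher in smn1 3TG, at 0.04 and 0.03.

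Of the Fos family, fosab encodes the zebrafish c-Fos, fosb a relative that pairs with Jun proteins in the same way, and fosl1a the Fos-related protein Fra-1. In smn1 3TG libraries fosab was at 8.38, 7.32 and 115 TPM, against 19.6, 20.1 and 13.5 TPM in 2TG libraries. Replicate 3 of 3TG was far above and its other two replicates below every 2TG library. The difference was 0.18 on the log2 scale (SE 0.89), and −1.06 without 3TG replicate 3, so that library set the direction.

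In the lin28a line fosab was at 237, 155 and 20.5 TPM in 3TG and at 152, 2.45 and 25.5 TPM in 2TG. The spread within each group was wider than the gap between them. The log2 difference was 1.94 (SE 1.33, limma adjusted p = 0.980). Leaving out single libraries moved it between 0.54, when the 2TG library at 2.45 TPM was dropped, and 3.28, when the one at 152 TPM was dropped. It was 1.57 when replicate 2 of 3TG was left out. In the tardbp and sox9b lines fosab differed by 0.35 and −0.21 on the log2 scale, with SEs of 0.47 and 0.39.

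The fosb level was the lowest of the 10, with a median of 1.16 TPM, and 15 of 24 libraries were at 1 TPM or more. It was at 15.4, 8.27 and 0.868 TPM in lin28a 3TG and at 12.2, 0.762 and 1.04 TPM in lin28a 2TG. In the other 3 lines its highest library was smn1 3TG replicate 3, at 4.03 TPM. Because the level is near the pseudocount of 1, fold changes of fosb are understated on the scale used.

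The fosl1a difference was the most negative of any member in any line. In smn1 embryos it was at 5.17, 1.32 and 2.81 TPM in 3TG, against 6.55, 5.89 and 38.3 TPM in 2TG. All 3TG libraries were below all 2TG libraries, and 2TG replicate 3 was far above the rest. The log2 difference was −1.74 (SE 0.66, 95% interval −3.26 to −0.22, limma adjusted p = 0.375), and −0.93 without 2TG replicate 3.

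The smn1 libraries carry 2 number formats, 6 decimals in 3TG replicate 1 and 2TG replicates 1 and 2 and 6 significant digits in the others. Within the 6-decimal libraries fosl1a differed by −0.23 and within the others by −3.72, both below 0 but of very different size. In lin28a the gene was at 9.37, 119 and 2.48 TPM in 3TG and at 10.9, 2.28 and 2.06 TPM in 2TG, again with 1 library far above the others (log2 difference 1.73, SE 1.15, and 0.29 without 3TG replicate 2). In the tardbp line 3TG replicate 3, at 13.7 TPM, was above the other 5 libraries, which ranged over 1.47 to 3.12 TPM.

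The zinc finger factor egr1 was higher in all 3 smn1 3TG libraries, at 27.5, 22.4 and 94.8 TPM, than in the 2TG libraries, at 20.2, 21.4 and 13.2 TPM. The groups did not overlap, but the lowest 3TG library, at 22.4 TPM, was close to the highest 2TG library, at 21.4 TPM. The log2 difference was 1.08 (SE 0.50, limma adjusted p = 0.413), 0.45 without 3TG replicate 3, and 0.39 and 1.73 within the 6-decimal and 6-digit libraries.

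The orphan nuclear receptor nr4a1, known in mammals as NUR77, had the lowest p of any member. It was at 7.86, 12.9 and 12.6 TPM in smn1 3TG, against 4.84, 3.97 and 4.61 TPM in smn1 2TG. Every 3TG library was above every 2TG library. The mean was 11.1 ± 2.83 TPM in 3TG and 4.47 ± 0.453 TPM in 2TG (SD, n = 3 each), and the log2 difference was 1.12 (SE 0.24, 95% interval 0.57 to 1.67), which missed the threshold over all genes (limma adjusted p = 0.256). Summed neuron markers were also separated in this line, at 789 to 917 TPM in 3TG and 641 to 679 TPM in 2TG, with 7 of 8 markers higher in 3TG by sign (median log2 difference 0.41) and none at 0 TPM in any library. Their part in the nr4a1 and egr1 values was not tested.

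This gene ranked 109 of 19660 by p, and leaving out each library in turn kept its log2 difference between 1.01 and 1.33. Within the 6-decimal and the 6-digit libraries the differences were 0.72 and 1.29. In the other lines nr4a1 differed by −0.25 in tardbp, 0.22 in lin28a and 0.26 in sox9b, and the tardbp value turned to 0.19 on centring.

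In lin28a libraries egr1 was at 144, 49.7 and 38.9 TPM in 3TG and at 125, 18.8 and 45.4 TPM in 2TG. Replicate 1 was the highest of both groups, and the groups overlapped. The nr4a1 levels showed the same arrangement, at 55.1, 19.3 and 9.48 TPM in 3TG and 53.8, 9.29 and 12.4 TPM in 2TG. Without 3TG replicate 1 the log2 differences were −0.12 for egr1 and −0.43 for nr4a1, against 0.45 and 0.22 with all libraries.

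The ier2b gene, which encodes a small nuclear protein of the immediate early response family, was at 15.5, 10.9 and 80.3 TPM in smn1 3TG and at 13.1, 10.6 and 15.0 TPM in smn1 2TG. The groups overlapped, and 3TG replicate 3 was far above the other 5 libraries. With all libraries the log2 difference was 0.87 (SE 0.63), and 0.03 without that library. In lin28a 3TG it was at 125, 75.9 and 24.5 TPM, against 92.2, 5.14 and 22.2 TPM in lin28a 2TG, a log2 difference of 1.41 (SE 0.93).

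In the sox9b line ier2b was at 8.22, 9.84 and 9.95 TPM in 3TG and at 8.89, 10.7 and 8.89 TPM in 2TG. The standard error of 0.16 was the smallest of the members in that line, with a log2 difference of −0.02 (95% interval −0.39 to 0.35).

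The activity-dependent factor npas4a was at 1.77, 5.13 and 19.0 TPM in smn1 3TG and at 2.77, 3.84 and 3.24 TPM in smn1 2TG. Replicate 1 of 3TG lay below all 2TG libraries and its other two replicates above them. With all libraries the difference was 0.71 (SE 0.61), and −0.05 without 3TG replicate 3. In lin28a embryos it was at 21.1, 11.5 and 7.09 TPM in 3TG and at 18.5, 0.682 and 14.0 TPM in 2TG.

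The tardbp 3TG replicate 3 library was the highest of 6 libraries for fosl1a, fosb and junbb and the lowest or next to lowest for egr1, nr4a1, ier2b and npas4a. It had 1.67 TPM of nr4a1, against 9.93 and 7.28 TPM in the other 3TG libraries and 6.92, 7.24 and 5.21 TPM in 2TG libraries. Its egr1 level was 7.95 TPM, against 20.6 and 30.5 TPM in the other 3TG libraries and 7.76, 22.5 and 12.5 TPM in 2TG libraries. This is the library whose listed TPM summed to 77.8%. Without it the log2 differences were 0.89 for egr1, 0.36 for nr4a1, 1.07 for npas4a and −0.30 for fosl1a, against 0.38, −0.25, 0.62 and 0.53 with it. The part of its low total in these values was not tested.

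Within sox9b embryos, 2TG replicate 2 was the highest library for all 6 AP-1 members. There junba was at 77.7 TPM, against 41.4 and 23.2 TPM in the other 2TG libraries and 44.2, 27.6 and 35.2 TPM in 3TG libraries. The same library was highest of the 6 for junbb, at 54.6 TPM, for fosab, at 23.5 TPM, and for fosl1a, at 14.8 TPM. Both egr1 and ier2b were also highest or nearly so there, but by little, with 24.9 TPM of egr1 against 18.6 to 25.7 TPM in the other 5 libraries. The npas4a level was highest there too, at 3.49 TPM against 1.05 to 2.66 TPM in the other 5 libraries. That of nr4a1 was 9.52 TPM, below 12.2 TPM in 3TG replicate 3 and above the rest, at 3.31 to 8.47 TPM. Its hsp70l level was 464 TPM, against 394, 54.9 and 25.9 TPM in 3TG libraries and 181 and 20.1 TPM in the other 2TG libraries.

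In smn1 embryos the JunB duplicates overlapped between genotypes. junba was at 56.5, 17.96 and 48.3 TPM in 3TG and at 40.8, 55.1 and 43.6 TPM in 2TG, and junbb was at 43.2, 20.03 and 75.9 TPM in 3TG and at 37.5, 39.3 and 50.3 TPM in 2TG. Replicate 2 of 3TG was the lowest library for both, and also for jun, fosab, fosb and fosl1a, the other AP-1 genes.

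**Figure D2:**
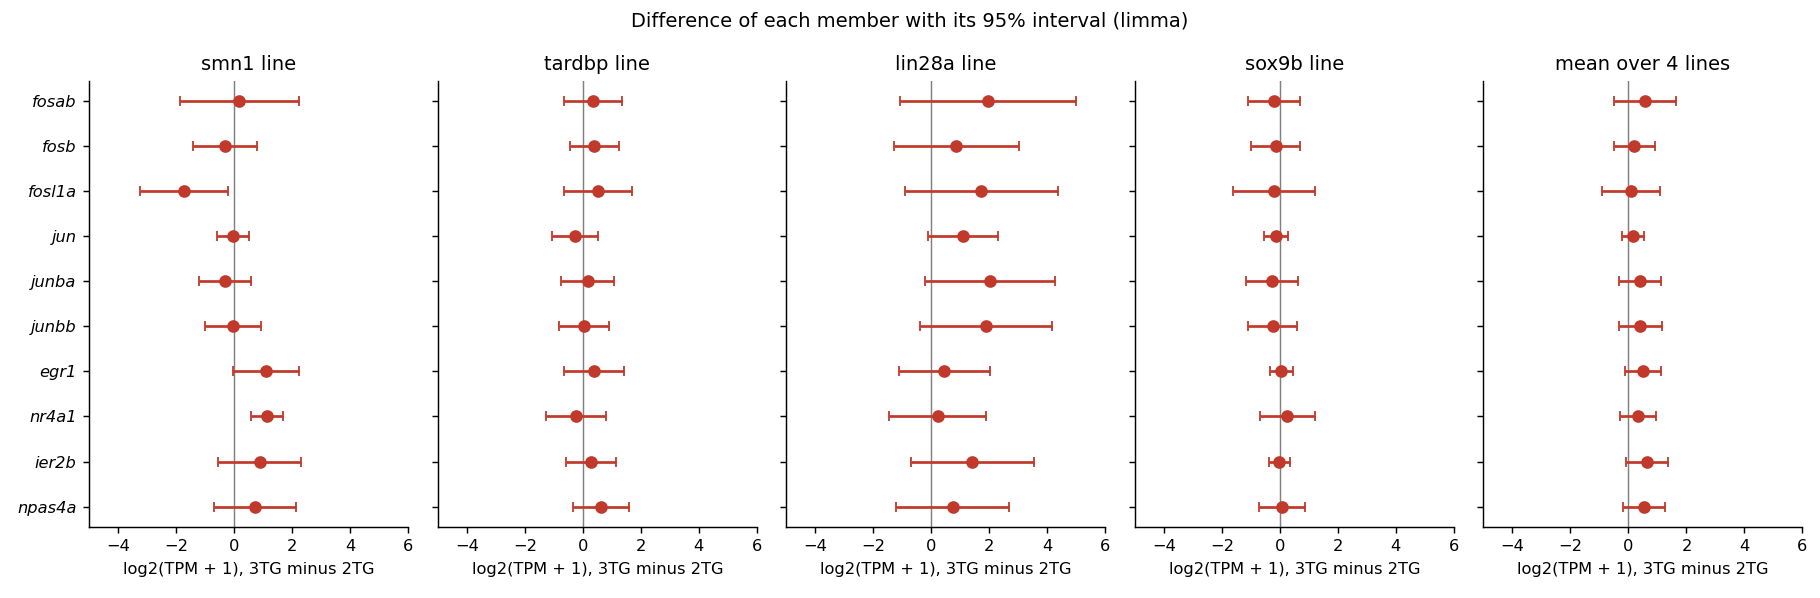
Difference in log2(TPM + 1), 3TG minus 2TG, of each member in each line and in the mean over 4 lines, with 95% intervals from limma that are not adjusted for the number of genes. The intervals of nr4a1 and fosl1a in the smn1 line exclude 0 and all others shown include it.

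The direction of the members differed by line without passing a test. In the lin28a line all 10 log2 differences were above 0 with a median of 1.25, where the median of all genes tested was −0.05. With 1 library left out, egr1, nr4a1 and npas4a turned below 0 in that line. Of the smn1 differences 5 were above 0, with a median of 0.07. In the tardbp line 8 were above 0 with a median of 0.31, where all genes had a median of −0.45 (−0.16 without 3TG replicate 3), and after centring all 10 were above 0 with a median of 0.75. With centring and without 3TG replicate 3 the median was 0.49, and fosl1a and junbb were below 0. In the sox9b line 3 were above 0 and the median was −0.15. Single libraries moved these medians. Dropping replicate 1, 2 or 3 of the smn1 3TG group gave 0.33, 0.62 and −0.32, and dropping replicate 2 of its 2TG group gave 0.12. For tardbp, dropping replicate 2 of 3TG gave 0.14, and dropping replicate 1, 2 or 3 of 2TG gave 0.20, 0.49 and 0.066. The lin28a median stayed above 0, at 0.70 and 1.91 when replicate 2 or 3 of 3TG was dropped and at 2.08 and 0.49 when replicate 1 or 2 of 2TG was dropped. With replicate 1 of both genotypes dropped, the lin28a median was 1.89 and that of the mean over 4 lines was 0.55. The sox9b median was −0.24, −0.055 and −0.097 when replicate 1, 2 or 3 of 3TG was dropped, turned to 0.17 when replicate 2 of 2TG was dropped, and was −0.37 when replicate 3 of 2TG was dropped. These are descriptions of 10 genes that vary together and are not a test.

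Averaged over the 4 lines, all 10 differences were above 0, with a median of 0.40 (0.23 without lin28a 2TG replicate 2, 0.61 without lin28a 2TG replicate 1), and 0 of 10 were called by limma in a fit in which 0% of 21099 genes passed. No member had an unadjusted p under 0.05 there, and fosl1a and jun turned below 0 with 1 library left out. The largest was ier2b at 0.63 (SE 0.35, limma adjusted p = 0.404). With a replicate block ier2b was at an unadjusted p of 0.0427, rank 3043 of 21099 (limma adjusted p = 0.296). Permuting genotype within each line exactly, over 160000 arrangements, two-sided, gave p = 0.110 for ier2b and p = 0.150 for egr1, the lowest of the 10. The difference between lines was tested for all 6 pairs of lines, 60 tests in all, and 0 were called by limma. In each pair 0% of 21099 genes were called, and 7 of the 60 tests were at an unadjusted p under 0.05. They were 3 in smn1 minus lin28a, 1 in tardbp minus lin28a and 3 in lin28a minus sox9b. There 1564, 4049 and 209 of the 21099 genes were under 0.05. In smn1 minus tardbp, smn1 minus sox9b and tardbp minus sox9b, with no such member, 2241, 710 and 4399 genes were. The lowest adjusted p was 0.193, for jun in tardbp minus lin28a (log2 −1.35, SE 0.52).

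**Figure D3:**
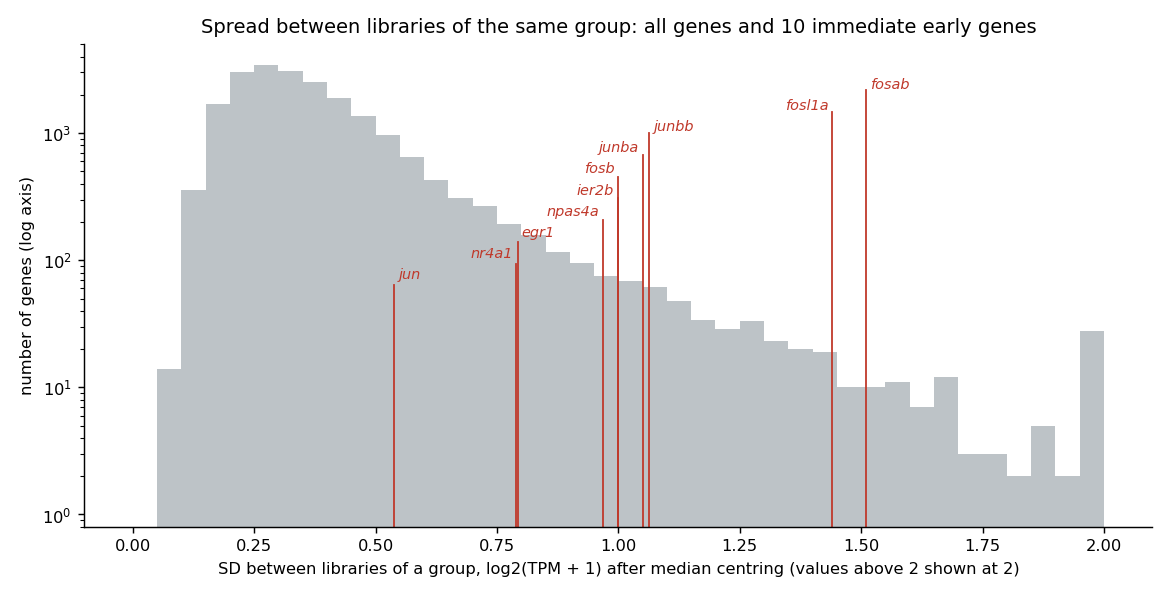
Histogram of the within-group standard deviation of log2(TPM + 1), after centring and pooled over the 8 groups, for 21099 genes on a log count axis. The 10 members are marked by lines whose heights carry no value. All members but jun lie in the upper 5% of genes.

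Pooled over the 8 groups, the members varied far more among replicates than most genes did. The within-group SD of log2(TPM + 1), with each library centred on its median gene, had a median of 0.999 over the members, against 0.331 over 21099 genes. Of the 10 members 9 were above 95% of genes, and jun was above 86.2%. The widest were fosab at 1.51, rank 81, and fosl1a at 1.44, rank 94. This spread was uneven over the groups. The highest ier2b library was 17.9 times the lowest in lin28a 2TG, 7.34 times in smn1 3TG and 5.1 times in lin28a 3TG. In every other group it was at most 1.95 times. For fosl1a the ratio was 47.9 in lin28a 3TG, but also 9.28 in tardbp 3TG and 8.53 in sox9b 2TG. The pooled SD was not computed without the lin28a line, so it does not describe each line.

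A few libraries held most of the high values. In lin28a 3TG replicate 2, all 10 members were at least 2 times their median over the 24 libraries, and it was the highest library of all for jun, junba, junbb and fosl1a, at 3.51, 3.98, 2.32 and 3.10 times the second highest. In lin28a 3TG replicate 1, 9 members were at least 2 times the median, and it was highest for the other 6. In lin28a 2TG replicate 1 there were 8 such members, and in smn1 3TG replicate 3 there were 6. In the lin28a line, replicates 1 and 2 of 3TG and replicate 1 of 2TG were thus high.

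**Figure D4:**
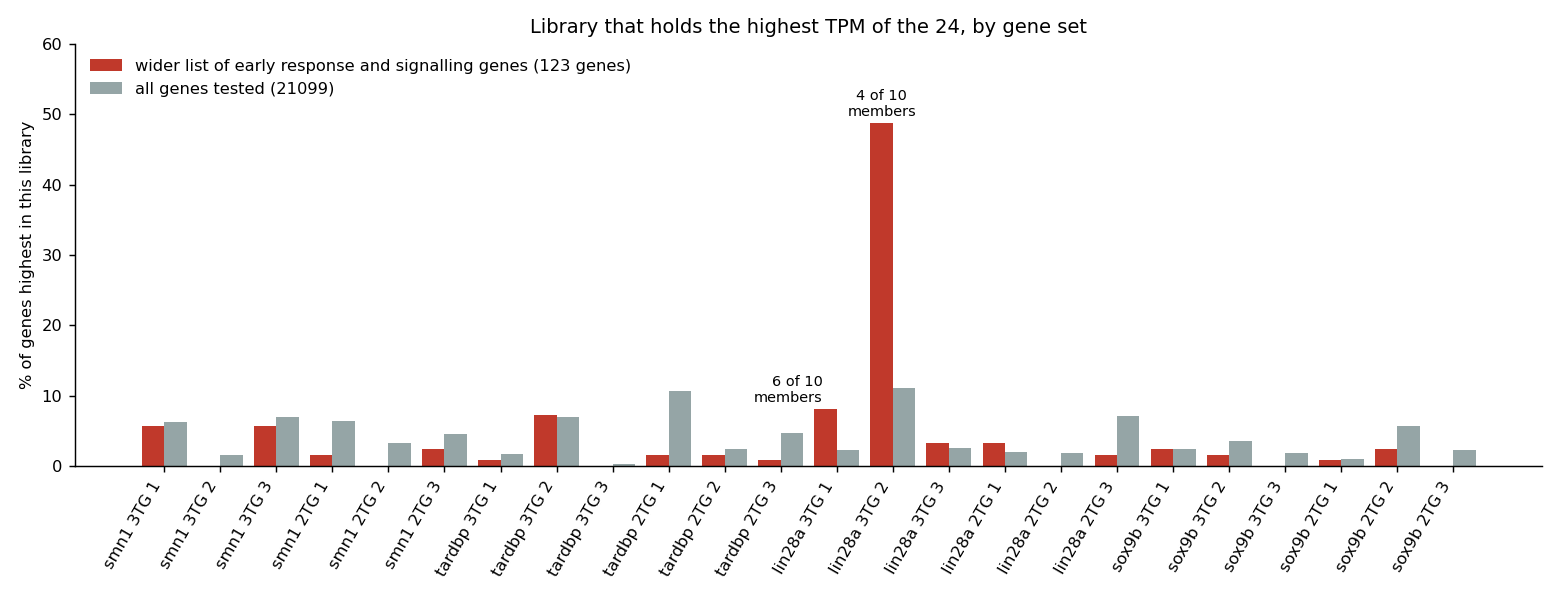
For each library, the share of the 123 genes of a wider early response list, and of all 21099 genes, that were at their highest of 24 libraries there. The lin28a 3TG replicate 2 library held the maximum of 48.8% of the wider list, against 11.1% of all genes. The list was chosen with earlier results of these data known, and its genes vary together, so the shares are a description.

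The group means had their maximum in lin28a 3TG for all 10 members and the next in lin28a 2TG for 7. Levels set across lines come from separate tables, and of 70 pairs of groups next to each other in the order only 2 did not overlap. Order among groups is therefore mostly within the spread.

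The members varied together to different degrees. Over 24 libraries, with group means removed, deviations of fosl1a, jun, junba and junbb correlated with one another at r = 0.83 to 0.95 (6 pairs), and those of the other 6 members at 0.58 to 0.93 (15 pairs). Between the sets r ran from 0.05 to 0.90 (24 pairs). Without the lin28a line the ranges were 0.73 to 0.89, 0.09 to 0.91 and −0.29 to 0.87 over 18 libraries. The libraries of a line share a table, and the split into 4 and 6 was made after these values were seen.

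The heat shock gene hsp70l, whose promoter also drives QFvpr, varied between libraries of one genotype and moved with some members. It was at 1138 TPM in lin28a 3TG replicate 2, against 7.21 and 44.3 TPM in the other 3TG libraries of that line and 6.45 to 13.8 TPM in the 2TG libraries. In smn1 embryos it was at 7.37, 11.2 and 27.9 TPM in 3TG, against 232, 231 and 318 TPM in 2TG. Of 21 heat shock genes tested, limma called 0 in every line, with 16 lower in smn1 3TG than in smn1 2TG (median log2 difference −1.06, 8 at an unadjusted p under 0.05) and medians of −0.03, 0.09 and −0.01 in the tardbp, lin28a and sox9b lines. In the smn1 line 2421 of all 19660 genes tested were at an unadjusted p under 0.05. The lin28a 3TG replicate 1 and 2TG replicate 1 libraries, high for most members, were at 7.21 and 10.6 TPM of hsp70l.

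**Figure D5:**
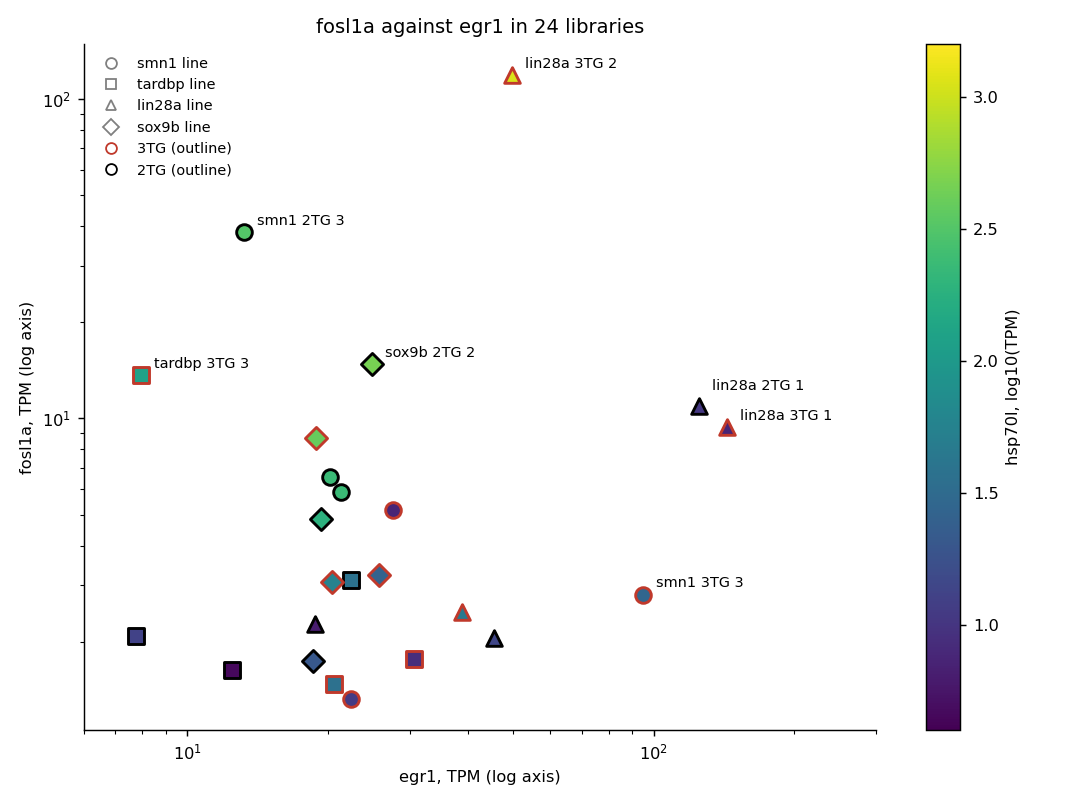
TPM of fosl1a (vertical) against egr1 (horizontal) in 24 libraries on log axes, with fill by log10 of hsp70l TPM, shape by line and outline by genotype. The lin28a 3TG replicate 2 library is highest for fosl1a at 119 TPM, and lin28a 3TG replicate 1 is highest for egr1 at 144 TPM with only 9.37 TPM of fosl1a.

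Over 24 libraries hsp70l and fosl1a correlated on log2(TPM + 1) at Pearson r = 0.70 and Spearman rho = 0.58. Within the smn1, tardbp, lin28a and sox9b lines r was 0.69, 0.78, 0.80 and 0.93 over 6 libraries each. Group means were not removed here, and in the smn1 line both genes were separated by genotype. Over the 4 lines r ran from 0.30 to 0.85 for junba and from −0.15 to 0.87 for jun. For egr1 it ran from −0.46 to 0.006 and for nr4a1 from −0.84 to 0.43. Without the 2 libraries farthest from the median hsp70l, lin28a 3TG replicate 2 and sox9b 2TG replicate 2, r was 0.56. For junba the coefficient was 0.61 and 0.39 without these libraries, for egr1 it was −0.19 and −0.33 without them, and for nr4a1 −0.26 and −0.46 without them. It fell from 0.51 to 0.16 for jun and from 0.41 to 0.12 for junbb. For fosab it fell from 0.20 to −0.01 and for fosb from 0.18 to −0.04. It went from −0.07 to −0.28 for ier2b and from −0.03 to −0.18 for npas4a. The part of hsp70l and of the neuron or leukocyte markers in the member values was not tested. Summed leukocyte markers were 494 TPM in smn1 3TG replicate 3, against 98.3 to 274 TPM in the other 5 smn1 libraries, and 412 TPM in lin28a 3TG replicate 2, against 132 to 205 TPM in the other lin28a libraries. Of that list, mmp9 alone was at 255 TPM in lin28a 3TG replicate 2, against 3.41 to 11.1 TPM in the other lin28a libraries. In smn1 3TG replicate 3 mmp9 was at 6.61 TPM. The other smn1 libraries had 84.9 and 2.96 TPM of mmp9 in 3TG replicates 1 and 2, and 9.45, 14.7 and 118 TPM in 2TG.

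The 5 genes whose pattern over the 24 libraries was most like the mean of the members were sik1, a salt-inducible kinase, at r = 0.96, ier2a, the duplicate of ier2b, at 0.96, dusp1, a phosphatase of MAP kinases, at 0.93, jdp2b, an AP-1 family repressor, at 0.93, and btg2, an antiproliferative gene, at 0.92. They were ranked among 19354 genes, with group means removed. All 5 were in the wider list, which was chosen with earlier results of these data known, and nothing was tested.

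That list of 123 genes held other AP-1, EGR and NR4A factors, feedback regulators, neuronal activity genes, secreted early genes, upstream kinases and KLF and IER genes. limma called 0 of 118, 117, 120 and 118 in the smn1, tardbp, lin28a and sox9b lines, with 16, 11, 3 and 0 at an unadjusted p under 0.05. Of all genes tested, 2421 of 19660, 2657 of 19336, 349 of 19580 and 239 of 19619 were under 0.05 unadjusted. For tardbp 8 of the 123 were called when 1 fit was made over 24 libraries, where 3108 of all 21099 genes tested were called. After centring and without 3TG replicate 3, 50 genes of the whole table were called, 2 of them in the list. By direction alone 73, 36, 93 and 71 were above 0, and groups were separated for 20, 20, 5 and 4, which is 16.9%, 17.1%, 4.17% and 3.39% of those tested, against 19.2%, 29.2%, 6.56% and 4.75% of all genes. With 3TG higher the shares of the list were 13.6%, 0%, 4.17% and 2.54%, against 7.96%, 0.176%, 2.50% and 3.60% of all genes. With 3TG lower they were 3.39%, 17.1%, 0% and 0.847%, against 11.2%, 29.1%, 4.06% and 1.15%. These shares are 16, 0, 5 and 3 genes with 3TG higher and 4, 20, 0 and 1 with 3TG lower. Several of these counts are small, and the list was chosen with earlier results of these data known. No pattern by line is read from them.

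In the smn1 line, fosaa, another Fos gene, was at 3.10, 7.48 and 7.35 TPM in 3TG and at 2.42, 2.55 and 2.03 TPM in 2TG, with a log2 difference of 0.99 (SE 0.32, limma adjusted p = 0.351). All 3TG libraries were above all 2TG libraries, like nr4a1. The glucocorticoid-responsive factor klf9 (1.40), the matrix protein gene ccn2b (1.38) and the endothelial flow-responsive factor klf2a (1.31) were also separated, with 3TG higher. Without 3TG replicate 3, at 107 TPM of klf9 and 80.4 TPM of klf2a, their differences were 0.63 and 0.70. In the tardbp line gadd45gb.1 (−1.36), srfb (−1.34), nfil3-5 (−1.17) and creb1b (−1.16) were separated and lower in 3TG, where the median of all genes was −0.45, or −0.16 without 3TG replicate 3. The gadd45gb.1 value was −0.78 without 2TG replicate 1. Serum response factor, encoded by srfb, and CREB, encoded by creb1b, are factors that act at immediate early promoters. In the lin28a line the cytokine signalling inhibitor socs3b was at 19.5, 131 and 14.2 TPM in 3TG and at 13.1, 8.88 and 8.50 TPM in 2TG, with nfil3 (0.74), hbegfb (0.66) and zfp36l1a (0.57) separated in the same direction. Without 3TG replicate 2 the values were 0.69 for socs3b, 0.24 for nfil3, 0.41 for hbegfb and 0.20 for zfp36l1a. In the sox9b line cxcl8a (−0.43), mapk14b (0.32), egr2b (0.31) and ier5 (0.08) were separated by small amounts. Without 2TG replicate 3 mapk14b was at 0.065, and without 3TG replicate 2 egr2b was at 0.20.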

How the data were processed

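RNA sequencing libraries of whole zebrafish embryos were analysed, 24 in all, 3 per group. The authors deposited TPM for each gene, in 1 table for each line. The submitters' processing notes list Trimmomatic 0.39, STAR 2.7.10b and Salmon 1.10.1, and as genome builds GRCz11 with danRer11, with no role or order for any. No counts were used, so depth is unknown.

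Each line was tested as log2(TPM + 1), 3 libraries against 3, for genes at 1 TPM or more in at least 3 libraries, with limma 3.58.1 in R 4.3.3 (trended variance prior, two-sided, Benjamini-Hochberg adjustment over all genes tested, threshold 0.05). One fit over 24 libraries gave the mean over lines and the differences between lines. The fits were run on simulated data with independent normal noise and added shifts, to see that the shifts were returned. Such data hold no single high libraries, so the run is no check of the calls made here. Exact permutation tests covered single genes. Each fit was repeated with pseudocounts of 0.1 and 5, without the filter and with a minimum of 5 TPM, with median centring, quantile normalization, an untrended prior, a replicate block, 1 fit over 24 libraries and each library left out. Alternatives added after the data were seen were centring without tardbp 3TG replicate 3, leaving out both replicate 1 libraries of the lin28a line, permutation within lines, the split by number format and leave-outs of named genes of the wider list. The members and lists were chosen with earlier results of these data known. All members are named in the text, and the figures of levels and differences show each of them in every line. From other lists, up to 4 genes per line with separated groups and the largest difference are named, and the 5 genes most like the members. RefSeq positions are from GRCz12tu and serve only for neighbours.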

Additional observations from a re-analysis of the deposited data

How the results depend on the processing

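Over 948 alternative values for the members in the 4 lines and their mean, 0 were called, and the lowest adjusted p from limma was 0.157. Of these values 885 kept the direction of the value reported and 63 did not. The filter settings, the untrended prior, the replicate block and the single fit over 24 libraries leave a member's log2 difference unchanged by construction. Their values are among the 885 and could not change direction, so that count is no measure of stability. Median centring gave log2 differences of 0.18 for jun and 0.19 for nr4a1 in the tardbp line and −0.036 for egr1 and −0.015 for npas4a in the sox9b line. Quantile normalization gave 0.041 for jun and 0.031 for junbb in the smn1 line, 0.28 for jun and 0.12 for nr4a1 in the tardbp line, and −0.016 for egr1 and −0.0033 for npas4a in the sox9b line. The cause was not tested.

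Leaving out each library in turn changed the sign of 26 of 50 results. In the smn1 line fosab ran from −1.06 to 0.84, fosb from −0.90 to 0.068, jun from −0.20 to 0.13, junba from −0.62 to 0.18, junbb from −0.50 to 0.44, npas4a from −0.047 to 1.38. In the tardbp line egr1 ran from −0.015 to 0.89, fosab from −0.16 to 0.61, fosl1a from −0.30 to 0.98, junba from −0.060 to 0.52, junbb from −0.21 to 0.22, nr4a1 from −0.65 to 0.36. In the lin28a line egr1 ran from −0.20 to 1.13, npas4a from −0.39 to 1.38, nr4a1 from −0.43 to 0.96. In the sox9b line egr1 ran from −0.080 to 0.17, fosab from −0.49 to 0.22, fosl1a from −0.80 to 0.46, ier2b from −0.064 to 0.060, jun from −0.27 to 0.030, junba from −0.68 to 0.17, junbb from −0.63 to 0.11, npas4a from −0.19 to 0.38, nr4a1 from −0.12 to 0.62. In the mean over the 4 lines fosl1a ran from −0.28 to 0.36, jun from −0.0055 to 0.27. Centring together with leaving out tardbp 3TG replicate 3 gave −0.17 for fosl1a, −0.075 for junbb and 0.49 for nr4a1 in the tardbp line, and −0.10 for fosl1a in the mean.

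The number of genes called in the whole tardbp table was 2, and 0 with a pseudocount of 0.1, with no filter, with median centring and with quantile normalization. It was 3108 with one fit over 24 libraries, where 8 genes of the wider early response list were called. Leaving out single libraries gave 0 to 166, and 50 with centring and without 3TG replicate 3, where 2 genes of the wider list were called. In the smn1 line 5 genes were called with no abundance trend, against 0, and 0 to 2 with libraries left out. In the mean over 4 lines 0 to 1 were. No alternative called a member.

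Replicate numbers did not pair the libraries in every line: in no line were all 3 correlations of same-numbered libraries over 0.1, and in the lin28a line they were 0.38, 0.05 and 0.24. In that line each 3TG library correlated best with the 2TG library of its own number, so pairing there is possible. The replicate block lowered the SE of nr4a1 in that line from 0.73 to 0.29 and that of egr1 from 0.69 to 0.32. The SE of junba went from 0.97 to 0.81 (limma with the block, unadjusted p = 0.0471, adjusted p = 0.849). The SEs and p-values given for this line in the Results are without the block unless stated. With the replicate block 0 members were called, and 28 genes were called in the tardbp table, against 2. In the other lines not every library correlated best with its own number, and lin28a 2TG replicate 2 correlated best with 3TG replicate 3 (0.18).

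Depth limits cannot be given, because the tables hold no counts.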
